A study of Mus musculus with 16 samples.

Results

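S100 proteins and annexins are the genes described here. The 9 members are S100a1, S100a4, S100a6, S100a10, S100a11, Anxa1, Anxa2, Anxa3 and Anxa5, taken by their gene symbols from a deposited count table of 13842 genes. All 9 were in the table, all 9 passed the filter on low counts, and they are read out of a test over 13504 genes. PolyA RNA was sequenced from ventricular tissue of 16 female mice aged 3 months, with 1 library per mouse. The 4 groups of 4 mice were untreated DBA/2J mice (DBA controls), DBA/2J mice 2 weeks after permanent ligation of a coronary artery (DBA ligated), untreated C57Bl6/N mice (C57 controls) and C57Bl6/N mice 2 weeks after the same ligation (C57 ligated). DBA/2J and C57Bl6/N are inbred strains, and no transgene or drug is named in the labels. Controls had no operation, so ligation and surgery cannot be told apart. The labels spell the strain of the C57 controls C57Bl-6NCR and that of the C57 ligated mice C57Bl-6N in the library names, so a difference of substrain or source between these groups cannot be told apart from ligation. The ligated libraries are named remote. The tissue is septum and left ventricle in the sample labels, but septum and right ventricles in the study's own design text.

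S100 proteins are small proteins with EF-hand motifs, and most but not all of them bind calcium. They mostly act as dimers, inside the cell on enzymes, channels and the cytoskeleton and, for some members, outside it as signals. Annexins are a second calcium-dependent family, which bind to phospholipid membranes with negatively charged heads and take part in membrane repair, secretion and the control of inflammation. The families meet in stable complexes, of which the tetramer of S100a10 and Anxa2 at the plasma membrane is the best known, and S100a11 binds Anxa1. In the heart S100a1 is made chiefly by cardiomyocytes, where it acts on the ryanodine receptor and the calcium pump of the sarcoplasmic reticulum. S100a4, S100a6, S100a10, S100a11 and the annexins are also made by fibroblasts, endothelial cells and leukocytes.

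Levels are CPM, counts per mega-count of the library total, with totals scaled by TMM (the trimmed mean of M values), and are given as mean ± SD with n = 4. Differences are log2 fold changes with their standard error (SE). They were tested by quasi-likelihood in edgeR, p-values were adjusted by Benjamini-Hochberg over all genes tested, and a gene is called where the adjusted p is under 0.05. Library totals, in mega-counts (M), lay between 4.92 and 22 M. The DBA controls had 4.92 to 17 M, the C57 controls 8.22 to 14.2 M, the DBA ligated libraries 15.1 to 22 M and the C57 ligated libraries 13.7 to 20.9 M, so depth moved with ligation. The 3 libraries under 9 M were DBA controls 3 and 4 and C57 control 1. They also stood apart in GC content: over genes, the Spearman correlation of the level in log2 CPM with GC content was -0.15, -0.20 and -0.12 in these libraries, against -0.08 to -0.03 in the other 13. Results that rest on these libraries are given with and without them. Without them the controls left are DBA controls 1 and 2 and C57 controls 2, 3 and 4. A call lost with so few controls does not show that a change is absent. The smallest count of a member in any library was 29, for S100a4. Cardiomyocyte markers, such as the myosin heavy chain gene Myh6, summed to 65900 to 112000 CPM in every library, so heart muscle RNA was present throughout. The 5 atrial muscle markers tested summed to 288 to 679 CPM in DBA controls and 797 to 1110 CPM in DBA ligated libraries. In C57 mice the sums were 150 to 247 CPM in controls and 473 to 874 CPM after ligation. Their median log2 fold change was instead -2.24 in DBA and -1.07 in C57 ligation. With all libraries, 1 was called higher and 3 lower in DBA ligation, and 1 higher and 0 lower in C57 ligation. Without the libraries under 9 M, 1 was called higher and 0 lower in each strain. The part of atrial tissue in the values of the members was not tested.

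Per length, S100a1 was by far the highest member in each of the 4 groups. Its mean level was 1420 ± 505 CPM per kilobase (kb) of transcript in DBA controls, 717 ± 102 in DBA ligated, 992 ± 294 in C57 controls and 657 ± 90.6 in C57 ligated mice. No library of the next member reached the lowest S100a1 library of its group. In DBA ligated mice Anxa2, Anxa5 and S100a11 followed at 107 ± 5.94, 103 ± 5.01 and 94.1 ± 5.88 CPM per kb, and neighbours in this order overlapped. In C57 controls Anxa5 stood at 78.3 ± 11.1 CPM per kb, above Anxa2 at 53.8 ± 3.08, with no overlap. The lowest members were Anxa3 and S100a4, at 16.3 ± 1.35 and 17 ± 4.17 CPM per kb in DBA controls, where they overlapped, and at 13.4 ± 1.43 and 7.21 ± 2.77 CPM per kb in C57 controls, where they did not. S100a11 stood next after S100a1 in both control groups, with an SD of 206 around a mean of 235 CPM per kb in DBA controls.

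**Figure D1:**
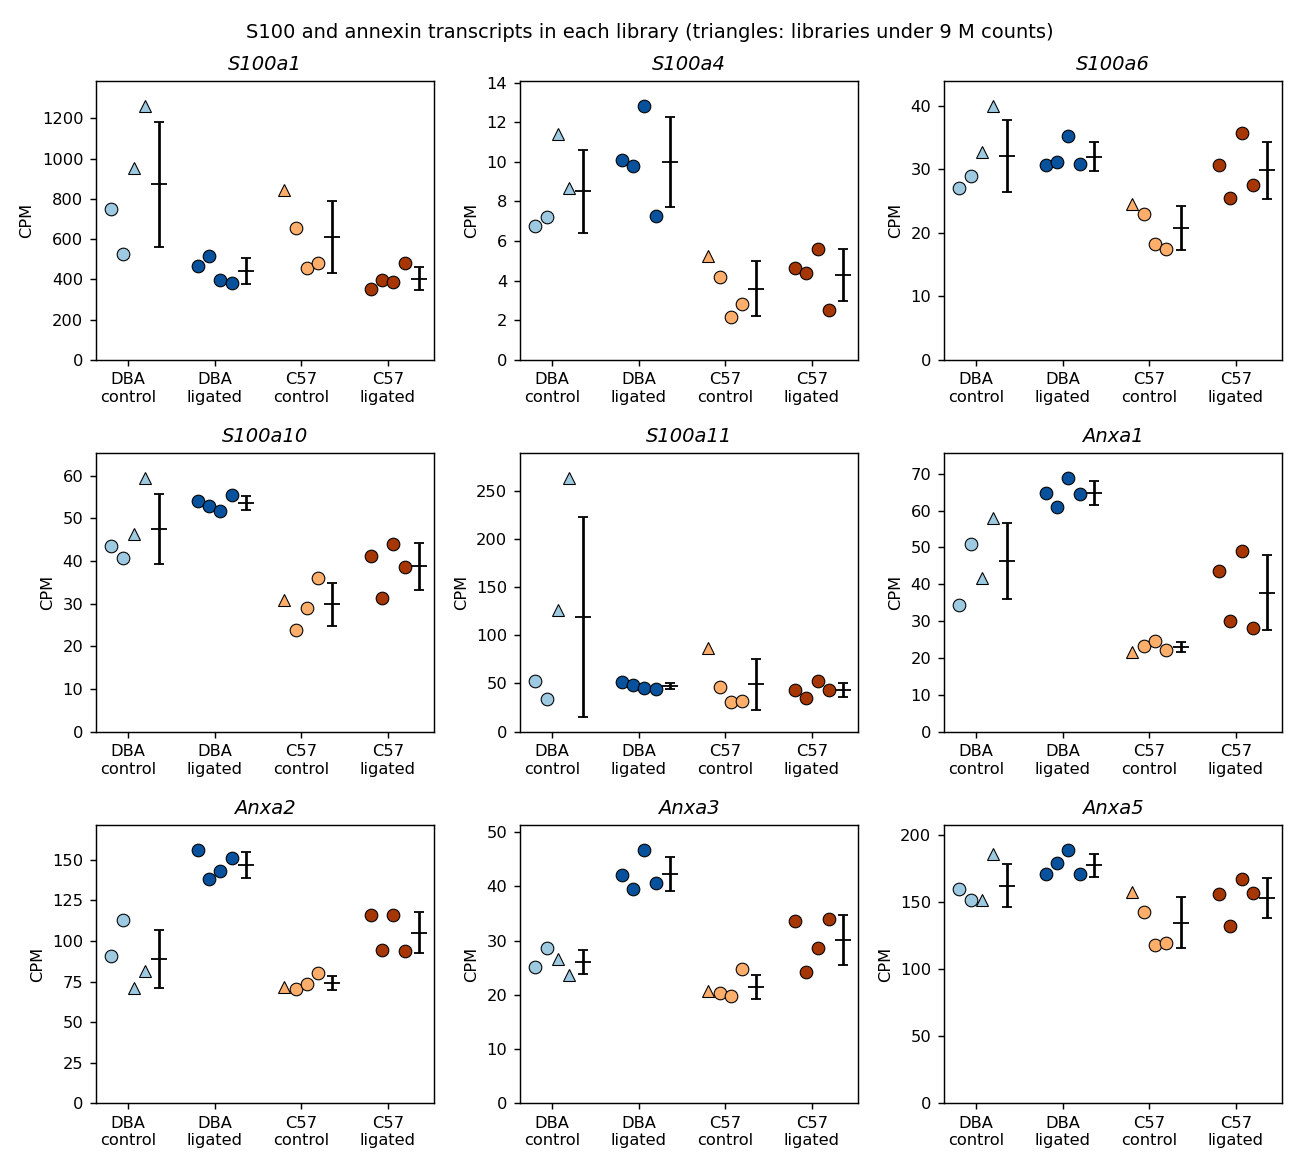
Level of each member in CPM (y axis from 0) in every library, by group; circles and triangles are single mice, triangles mark the 3 libraries under 9 M counts, and bars are mean ± SD with n = 4. Anxa2 and Anxa3 are higher in all 4 DBA ligated libraries than in any DBA control, and S100a11 spreads from 33.8 to 263 CPM in DBA controls.

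After ligation the annexins Anxa1, Anxa2 and Anxa3 were higher in both strains, S100a1 and S100a11 were lower in DBA mice, and S100a6 was higher in C57 mice. In DBA mice 3 members were called higher and 2 lower, where 11.1% of all genes tested were called higher and 13.8% lower. In C57 mice 4 members were called higher and 0 lower, against 7.24% and 6.06% of all genes. The median log2 fold change of the 9 members was 0.19 in DBA and 0.37 in C57 mice, beside 0.03 and 0.02 over all genes tested. Without the 3 libraries under 9 M, the members called were 2 higher and 0 lower in DBA mice, where 3.15% of all genes were called higher and 3.78% lower. In C57 mice they were then 6 higher and 0 lower, against 11.1% and 9.53% of all genes.

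Anxa2, which joins membranes, binds actin and carries plasminogen and its activator at the cell surface, rose in both strains. Its level was 90.7, 113, 71.1 and 81.7 CPM in DBA controls 1 to 4 and 156, 138, 143 and 151 CPM in the ligated mice of that strain, in the order 1, S40, S41, S42. Every ligated library lay above every control. The log2 fold change was 0.71 ± 0.12, a level 1.64 times that of controls (edgeR adjusted p = 0.0027). In C57 mice the levels were 71.5, 70.6, 73.6 and 80 CPM in controls and 116, 94.3, 116 and 94 CPM after ligation. The groups did not overlap here either, and ligated libraries 1 and 3 were the high ones. The rise was 0.51 ± 0.12 on the log2 scale (edgeR adjusted p = 0.0113). In DBA mice Anxa2 stayed called in all 23 alternative analyses, with log2 fold changes of 0.52 to 0.87.

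Anxa3, an annexin known from neutrophils and from endothelial cells, gave 25.2, 28.7, 26.6 and 23.6 CPM in DBA controls and 42.1, 39.6, 46.7 and 40.6 CPM in DBA ligated libraries. Again no library overlapped, and the log2 fold change was 0.69 ± 0.11 (edgeR adjusted p = 0.0027), called in all 23 alternatives. In C57 mice it gave 20.8, 20.4, 19.8 and 24.8 CPM in controls and 33.7, 24.2, 28.7 and 34 CPM after ligation. Ligated library 2 lay just under control 4, and the other ligated libraries lay above all controls. Its log2 fold change there was 0.49 ± 0.11 (edgeR adjusted p = 0.0111).

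Anxa1, a mediator of the resolution of inflammation that acts through formyl peptide receptors, differed between strains as well as with ligation. DBA controls had 34.5, 51, 41.7 and 57.9 CPM, and DBA ligated libraries had 64.9, 61.1, 68.8 and 64.4 CPM. The controls were spread wide and the ligated libraries narrowly, without overlap. The log2 fold change was 0.50 ± 0.16 (edgeR adjusted p = 0.0355). The call was lost without DBA control 1 (0.37, edgeR adjusted p = 0.0965), without DBA control 3 (adjusted p = 0.105), without DBA ligated library 1, S41 or S42 (adjusted p = 0.0654, 0.084 and 0.0684), and without the 3 libraries under 9 M (0.59, adjusted p = 0.0896). In C57 mice Anxa1 was 21.6, 23.2, 24.7 and 22.2 CPM in controls and 43.7, 30, 48.9 and 28.2 CPM after ligation. All ligated libraries were above all controls, and libraries 1 and 3 were again the high ones. The C57 log2 fold change was 0.72 ± 0.17 (edgeR adjusted p = 0.012).

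In C57 mice the calls of Anxa1, Anxa2 and Anxa3 were all lost without C57 ligated library 1 (edgeR adjusted p = 0.0523, 0.0519 and 0.0521), with log2 fold changes of 0.64, 0.46 and 0.44, and that of Anxa1 also without C57 ligated library 3 (0.58, adjusted p = 0.0507). The number of members called in C57 ligation was then 0 without ligated library 1, where 4.55% of all genes were called, beside 13.3% with it. The summed level of 8 fibroblast markers was 4970, 2600, 4050 and 2990 CPM in C57 ligated libraries 1 to 4 and 1730 to 2090 CPM in C57 controls. Libraries 1 and 3 were the high ones for fibroblast markers too. Macrophage markers were also highest in these 2, at 535, 462, 622 and 455 CPM in libraries 1 to 4. Cardiomyocyte markers were lowest there, at 69900, 83500, 70200 and 84500 CPM. Anxa3 was instead highest in ligated libraries 1 and 4, at 33.7 and 34 CPM. The part of these cell types in the annexin levels was not tested. In bulk tissue fewer or more cells of a type and less or more RNA per cell cannot be told apart.

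Anxa5, which covers membranes that expose phosphatidylserine and is used as a stain for dying cells, was per length the highest annexin member in 3 of the 4 groups, all but DBA ligated mice. It ranged from 152 to 186 CPM in DBA controls, from 171 to 189 in DBA ligated, from 118 to 158 in C57 controls and from 132 to 167 in C57 ligated libraries. These ranges overlapped within each strain. Its log2 fold change was 0.13 ± 0.10 in DBA mice, with a 95% interval of -0.08 to 0.34, and 0.19 ± 0.10 in C57 mice, with an interval of -0.02 to 0.40 (edgeR adjusted p = 0.354 and 0.233). It was called in C57 ligation without the 3 libraries under 9 M (0.27, edgeR adjusted p = 0.0304).

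The scaling bears on these small changes. With plain library totals in place of TMM, the median of all genes moved up by 0.16 in DBA ligation and by 0.11 in C57 ligation, and genes called higher and lower went from 1501 and 1859 to 3105 and 821 in DBA mice and from 978 and 818 to 1680 and 426 in C57 mice. Under that scaling Anxa5 was called in both strains (log2 fold change 0.30 in each, edgeR adjusted p = 0.0348 and 0.0476), and S100a10 in C57 mice (0.49, adjusted p = 0.0236). The gain of each over its value under TMM was about the shift of all genes. Strain contrasts shifted by 0.06 in controls and 0.11 in ligated mice.

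**Figure D2:**
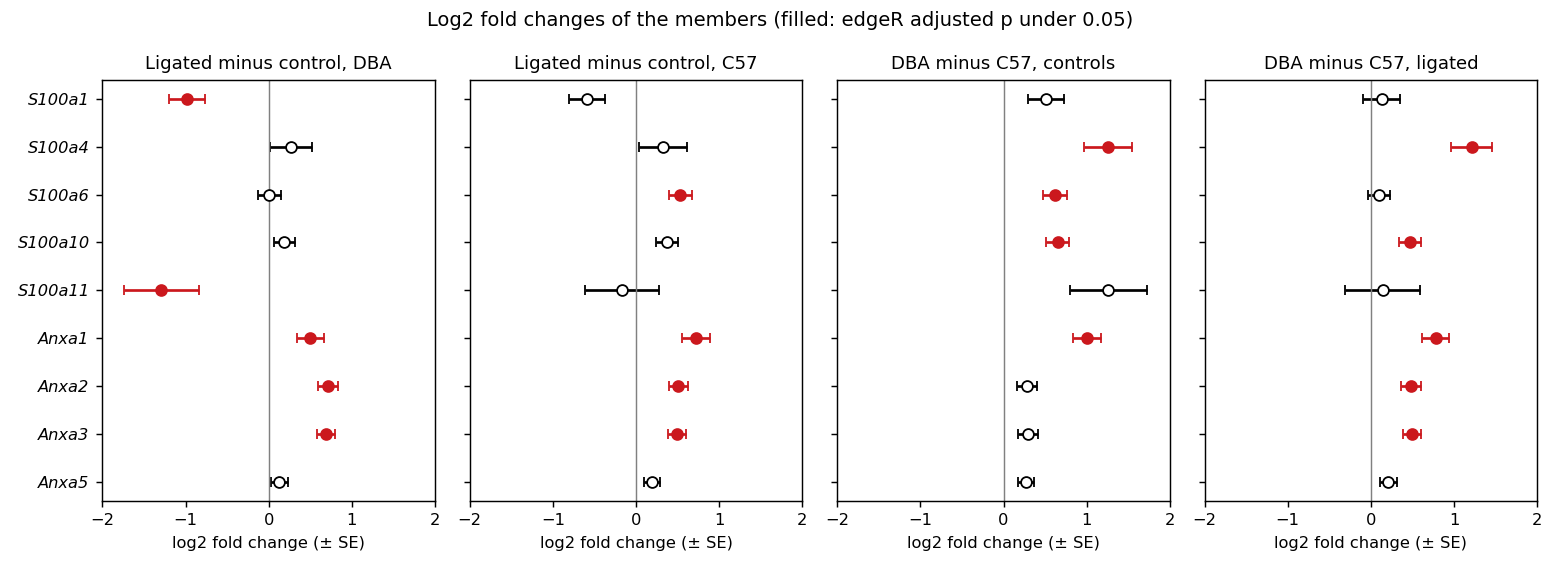
Log2 fold change of each member with its SE (x axis) in 4 comparisons; filled red points have an edgeR adjusted p under 0.05 and open points do not. Anxa1, Anxa2 and Anxa3 are filled to the right of 0 in both ligation panels, S100a1 and S100a11 to the left in DBA mice, and the members called in the strain panels all lie to the right, higher in DBA mice.

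Promoter sequences are shown for the annexins because Anxa1 and Anxa2 rose with ligation in both strains. They are the 250 bases before the transcription start from RefSeq on GRCm38.p6, 5′ to 3′ on the gene's strand, at chr19:20390672-20390921 on the minus strand for Anxa1 and at chr9:69453433-69453682 on the plus strand for Anxa2. An entry was found for 7 of the 9 members. Capitals mark matches, on either strand, to the motifs TGANTCA of AP-1, GGGCGG of the GC box, TATAAA of the TATA box and CATTCC of the muscle motif M-CAT. No match overlapped another in the windows shown.
Anxa1: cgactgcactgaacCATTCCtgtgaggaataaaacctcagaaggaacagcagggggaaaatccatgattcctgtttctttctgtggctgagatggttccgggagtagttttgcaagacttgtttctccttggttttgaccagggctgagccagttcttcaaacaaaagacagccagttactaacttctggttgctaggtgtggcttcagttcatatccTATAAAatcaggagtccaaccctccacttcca
Anxa2: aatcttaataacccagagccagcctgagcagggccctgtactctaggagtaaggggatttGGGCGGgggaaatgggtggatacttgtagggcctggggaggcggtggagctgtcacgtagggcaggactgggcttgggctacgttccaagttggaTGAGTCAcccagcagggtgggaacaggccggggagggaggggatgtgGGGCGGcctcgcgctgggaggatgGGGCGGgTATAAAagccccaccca
The Anxa1 window holds 1 TATA box, which begins 32 bases before the start, and 1 M-CAT match. The Anxa2 window holds 1 AP-1 match, 3 GC boxes and a TATA box that begins 17 bases before the start. Over 32851 mouse promoters of the same length, 6.7% held the AP-1 motif, 32.7% the GC box, 12.4% the TATA box and 12.6% the M-CAT motif. The matches describe these letters alone.

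S100a1, the regulator of calcium cycling in cardiomyocytes, fell in DBA mice. DBA controls 1 to 4 had 749, 527, 954 and 1260 CPM and the DBA ligated libraries, in the order given above, had 466, 518, 395 and 384 CPM. All ligated libraries lay below all controls, but control 2 was close to ligated library S40. The log2 fold change was -0.98 ± 0.22, a level 1.98 times lower (edgeR adjusted p = 0.00812). C57 controls had 846, 657, 457 and 481 CPM and C57 ligated libraries 351, 398, 385 and 482 CPM. There the groups overlapped at ligated library 4, and the log2 fold change of -0.59 ± 0.22 was not called (edgeR adjusted p = 0.0832).

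The 3 highest S100a1 levels of all libraries were those of the 3 libraries under 9 M. Without these, the log2 fold change of S100a1 was -0.53 in DBA mice (edgeR adjusted p = 0.0827) and -0.40 in C57 mice (adjusted p = 0.0976), so that the DBA call ended and its size fell by more than 1.5 times. An offset for GC content and gene length left the DBA value at -1.06 (edgeR adjusted p = 0.0131). The part of library depth in the fall of S100a1 was not tested apart from this. Ligation also lowered cardiomyocyte markers, of which 6 of 8 were called lower in DBA and 4 of 8 in C57 mice, with summed levels of 83800 to 109000 CPM in DBA controls, 65900 to 70100 in DBA ligated, 94300 to 112000 in C57 controls and 69900 to 84500 in C57 ligated libraries. The ranges did not overlap within either strain. Of these 8 markers, 3 and 4 were called lower without the libraries under 9 M. Whether the lower S100a1 level went with a lower share of cardiomyocyte RNA was not tested.

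Of the proteins S100a1 is known to act on, 4 of 5 genes tested were called lower in DBA mice and 3 of 5 in C57 mice. Over all genes tested, 13.8% and 6.06% were called lower. The median log2 fold change of the list was -0.46 and -0.27. Ryr2 is also among the cardiomyocyte markers, which were called lower too, so the lists are not separate. Pln, the inhibitor of the sarcoplasmic calcium pump, had log2 fold changes of -0.60 ± 0.12 and -0.52 ± 0.12 (edgeR adjusted p = 0.00522 and 0.0111). The pump gene Atp2a2 had -0.44 ± 0.11 and -0.43 ± 0.11 (edgeR adjusted p = 0.0101 and 0.0162). The ryanodine receptor gene Ryr2 was called in DBA mice, at -0.52 ± 0.11 (edgeR adjusted p = 0.00543), and had -0.15 ± 0.11 in C57 mice (adjusted p = 0.364). Atp5a1, a subunit of the mitochondrial ATP synthase, fell by less, at -0.30 ± 0.08 and -0.27 ± 0.08 (edgeR adjusted p = 0.0188 and 0.0406). Without the 3 libraries under 9 M, 2 and 3 of the 5 were called lower, where 3.78% and 9.53% of all genes were. The DBA calls of Pln and Atp5a1 were then lost (-0.36 and -0.29, edgeR adjusted p = 0.052 and 0.0747).

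S100a11, a partner of Anxa1 made by many cell types, varied most of the members relative to its level, with a highest DBA control 7.77 times the lowest. DBA controls had 52.6, 33.8, 126 and 263 CPM, and DBA ligated libraries had 51.3, 48.2, 45.6 and 44.6 CPM. Controls 3 and 4 were far above the ligated libraries, control 1 just above them and control 2 below them. The log2 fold change was -1.29 ± 0.45 (edgeR adjusted p = 0.0459). It became -0.54 without DBA control 4 (edgeR adjusted p = 0.366), -1.25 without DBA control 3 (adjusted p = 0.106) and 0.14 without the 3 libraries under 9 M (adjusted p = 0.688). The call was also lost under the GC and length offset (-1.09, edgeR adjusted p = 0.11), and 15 of the 23 alternatives in all did not call a fall. In C57 mice S100a11 was 87.2, 46.8, 30.8 and 31.8 CPM in controls and 42.9, 34.4, 52.4 and 43 CPM after ligation. The highest control was the library under 9 M, and the log2 fold change of -0.17 ± 0.45 (edgeR adjusted p = 0.826) became 0.26 without it and the DBA libraries under 9 M (adjusted p = 0.334).

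Depth and the levels of S100a1 and S100a11 moved together in controls. The levels of S100a11 in the libraries of 4.92, 7.58 and 8.22 M were 263, 126 and 87.2 CPM, and in the other 13 libraries it stayed between 30.8 and 52.6 CPM. For S100a1 the same 3 libraries gave 1260, 954 and 846 CPM, and the others 351 to 749 CPM. Across the 16 libraries the 2 genes had a Pearson correlation of 0.83 in log2 CPM, a description of libraries that share groups and depth. The genes whose pattern over the 16 libraries was most like that of S100a1 were Sh3glb1, Arcn1 and Dnajc8, each with a Pearson correlation of 0.99, and those most like S100a11 were Arpc2, Ecm2 and Morf4l2, with 0.98, 0.98 and 0.97. S100a11 also has a processed pseudogene, S100a11-ps, on chromosome 12, with 93.7% identical bases over 303 aligned positions, so its counts are uncertain to the extent that reads were shared.

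**Figure D3:**
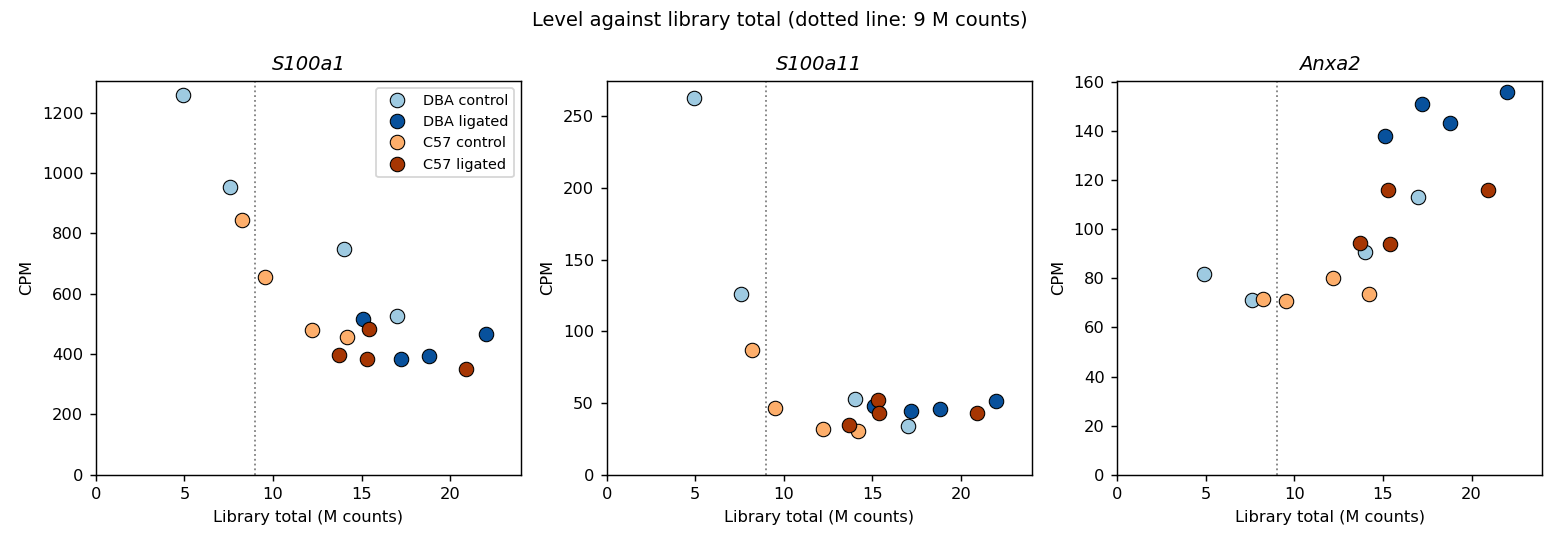
Level in CPM (y axis from 0) against library total in M counts (x axis) for S100a1, S100a11 and Anxa2, 1 point per library, coloured by group; the dotted line is at 9 M. S100a11 lies at 87.2 CPM or more in the 3 libraries to the left of the line and at 52.6 CPM or less to its right, while Anxa2 is low there and highest in DBA ligated libraries.

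S100a6, a calcium sensor of fibroblasts and other dividing cells, was called after ligation in C57 mice and not in DBA mice. DBA controls had 27, 28.9, 32.7 and 39.9 CPM and DBA ligated libraries 30.6, 31.2, 35.3 and 30.9 CPM. The ranges overlapped, and the log2 fold change was 0.01 ± 0.14, with a 95% interval of -0.28 to 0.30 (edgeR adjusted p = 0.95). C57 controls had 24.5, 23, 18.2 and 17.5 CPM and C57 ligated libraries 30.7, 25.4, 35.7 and 27.5 CPM. Every C57 ligated library was above every C57 control, and the log2 fold change was 0.53 ± 0.14 (edgeR adjusted p = 0.0199). The C57 call was lost without C57 control 3 or 4 (edgeR adjusted p = 0.0556 and 0.0591) and without C57 ligated library 1 or 3 (adjusted p = 0.0619 and 0.075), and it held without the libraries under 9 M (0.62, adjusted p = 0.00259). The difference between the strains' responses was tested on its own and was not called, as given with the interaction.

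S100a10, the partner that carries Anxa2 to the plasma membrane, was not called after ligation in either strain. It had 43.6, 40.7, 46.3 and 59.4 CPM in DBA controls and 54.1, 52.9, 51.7 and 55.5 CPM in DBA ligated libraries, with a log2 fold change of 0.19 ± 0.13 (edgeR adjusted p = 0.299). Control 4 was the highest of the 8. In C57 mice it had 30.9, 23.8, 28.9 and 36 CPM in controls and 41.2, 31.2, 44 and 38.6 CPM after ligation, with 0.37 ± 0.13 (edgeR adjusted p = 0.0706). Ligated library 2 fell within the controls. The C57 rise was called without the libraries under 9 M (0.39, edgeR adjusted p = 0.0338). Over the 16 libraries, S100a10 and Anxa2 had a Pearson correlation of 0.66 in log2 CPM, while S100a10 had 0.89 with Anxa1.

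S100a4, also named fibroblast-specific protein and made by leukocytes too, was the lowest member in CPM. DBA controls had 6.76, 7.19, 11.4 and 8.67 CPM and DBA ligated libraries 10.1, 9.77, 12.8 and 7.25 CPM, and C57 controls had 5.23, 4.19, 2.14 and 2.84 CPM and C57 ligated libraries 4.66, 4.39, 5.61 and 2.5 CPM. Controls and ligated libraries overlapped in both strains. The log2 fold changes were 0.27 ± 0.25 in DBA and 0.32 ± 0.29 in C57 mice, with 95% intervals of -0.26 to 0.80 and -0.29 to 0.93 (edgeR adjusted p = 0.445 and 0.486). Both intervals include no change as well as a rise as large as that of Anxa1 in the same strain. An exon of the annotated gene Gm42674 covers 156 bases of S100a4 on the same strand in GENCODE M21, so reads there are uncertain.

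The interaction asks whether ligation changed a member by a different amount in DBA than in C57 mice. No member was called, nor was any of the 13504 genes (0%), by edgeR, although 782 genes (5.79%) and 1 member had an unadjusted p under 0.05. With DESeq2, 0 members and 17 genes were called. The member was S100a6, with a difference of -0.52 ± 0.19 in log2 fold change, DBA minus C57 (unadjusted p = 0.0163, edgeR adjusted p = 0.828), and a 95% interval of -0.92 to -0.12 before adjustment. S100a11 had -1.12 ± 0.64 (edgeR adjusted p = 0.857) and S100a1 -0.39 ± 0.31 (adjusted p = 0.869), and without the libraries under 9 M these became -0.12 and -0.14. For Anxa1, Anxa2 and Anxa3 the differences were -0.22 ± 0.23, 0.20 ± 0.17 and 0.20 ± 0.16, with 95% intervals of -0.70 to 0.26, -0.16 to 0.56 and -0.14 to 0.54. The intervals leave room for differences of that size, so equal responses of the strains were not shown.

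In controls, S100a4, S100a6, S100a10 and Anxa1 were higher in DBA than in C57 mice. These were 4 of 9 members called higher and 0 lower, where 12.6% of all genes were called higher and 9.92% lower. All 9 members had a positive log2 fold change and an unadjusted p under 0.05, as did 19% of all genes, and the members' median was 0.62, beside 0.02 over all genes. Anxa1 was 46.3 ± 10.3 CPM in DBA and 22.9 ± 1.36 CPM in C57 controls, a log2 difference of 1.00 ± 0.17 (edgeR adjusted p = 0.000398). The lowest DBA control had 34.5 CPM and the highest C57 control 24.7. S100a4 was 8.50 ± 2.08 against 3.60 ± 1.38 CPM, with a log2 difference of 1.26 ± 0.29 (edgeR adjusted p = 0.00426). S100a10 was 47.5 ± 8.25 against 29.9 ± 5.06 CPM, with 0.65 ± 0.14 (edgeR adjusted p = 0.00195), and S100a6 32.1 ± 5.68 against 20.8 ± 3.50 CPM, with 0.62 ± 0.14 (adjusted p = 0.00426). None of these 4 overlapped between the strains, which describes the values behind the calls. The share of all genes without such overlap was not counted. The 4 stayed called without the libraries under 9 M, at 0.87, 1.23, 0.50 and 0.53 for Anxa1, S100a4, S100a10 and S100a6.

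The other 5 members were not called between the control groups. S100a11 had the largest log2 difference among them, 1.26 ± 0.46 (edgeR adjusted p = 0.0589), which became 0.25 without the libraries under 9 M (adjusted p = 0.473). S100a1 had 0.51 ± 0.22, Anxa3 0.29 ± 0.12, Anxa2 0.28 ± 0.12 and Anxa5 0.27 ± 0.10 (edgeR adjusted p = 0.107, 0.0893, 0.106 and 0.0731). Without the libraries under 9 M, Anxa2 and Anxa5 were called higher in DBA controls (0.45 and 0.30, edgeR adjusted p = 0.00828 and 0.043), so that 6 of 9 members were called higher, where 10.9% of all genes were. DBA/2J reads were aligned to a genome of C57BL/6 origin, and how sequence differences between the strains affected these counts was not tested.

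Among ligated mice, S100a4, S100a10, Anxa1, Anxa2 and Anxa3 were higher in DBA than in C57 mice, 5 members higher and 0 lower, where 10.6% of all genes were called higher and 8.81% lower. The ligated and control contrasts rest on different mice, but each shares its groups with the ligation contrasts. S100a4 was 9.98 ± 2.28 CPM in DBA and 4.29 ± 1.30 CPM in C57 ligated mice, a log2 difference of 1.21 ± 0.25 (edgeR adjusted p = 0.00213). Anxa1 was 64.8 ± 3.13 against 37.7 ± 10.2 CPM, with 0.78 ± 0.16 (edgeR adjusted p = 0.00206). Anxa3 was 42.2 ± 3.15 against 30.1 ± 4.68 CPM, with 0.49 ± 0.11 (edgeR adjusted p = 0.00393), and Anxa2 147 ± 8.16 against 105 ± 12.9 CPM, with 0.48 ± 0.12 (adjusted p = 0.00685). S100a10 was 53.6 ± 1.65 against 38.7 ± 5.51 CPM, with 0.47 ± 0.13 (edgeR adjusted p = 0.016), and lost its call without C57 ligated library 2 (0.38, adjusted p = 0.0624). The libraries of these 5 members did not overlap between strains, which again describes the values behind the calls. Here too the share of all genes without such overlap was not counted.

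S100a6, which differed between the controls, did not do so in ligated mice: it was 32 ± 2.23 CPM in DBA and 29.8 ± 4.47 CPM in C57 ligated mice, and the log2 difference was 0.10 ± 0.13, with a 95% interval of -0.17 to 0.37 (edgeR adjusted p = 0.671). S100a1 and S100a11 were close in ligated mice, at 441 ± 62.9 against 404 ± 55.7 CPM and 47.4 ± 2.97 against 43.2 ± 7.34 CPM, with log2 differences of 0.13 ± 0.22 and 0.14 ± 0.45 (edgeR adjusted p = 0.762 and 0.879). Anxa5 was 177 ± 8.63 against 153 ± 14.7 CPM and its groups did not overlap, but 0.21 ± 0.10 was not called (edgeR adjusted p = 0.164). Without the libraries under 9 M it was called (0.21, edgeR adjusted p = 0.0419). Those libraries are all controls, and bear on this contrast through the shared filter, scaling, spread and adjustment over genes.

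The 5 S100 members lie on chromosome 3 with 4 other S100a genes of the table, within 3.05 Mb of mm10. S100a1 (chr3:90511034-90514330, minus strand) stands at one end, followed by S100a13, S100a16, S100a4 (chr3:90603770-90606045), S100a6 (chr3:90612894-90614414), S100a8, S100a9, S100a11 (chr3:93520496-93526288) and S100a10 (chr3:93555117-93564645). S100a13, next to S100a1, had log2 fold changes of 0.17 ± 0.12 in DBA and 0.22 ± 0.12 in C57 ligation, against -0.98 and -0.59 for S100a1, which became -0.53 and -0.40 without the libraries under 9 M. S100a10, next to S100a11, had 0.19 and 0.37 against -1.29 and -0.17. Without those libraries this pair did not differ in sign, with 0.35 and 0.39 for S100a10 and 0.14 and 0.26 for S100a11. S100a4 and S100a6, which follow each other among the S100a genes of the table, were both higher in DBA controls. The annexin members are dispersed, with Anxa5 on chromosome 3 (chr3:36448924-36475887), Anxa3 on chromosome 5 (chr5:96793385-96845968), Anxa2 on chromosome 9 (chr9:69453683-69491785) and Anxa1 on chromosome 19 (chr19:20373434-20390671).

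**Figure D4:**
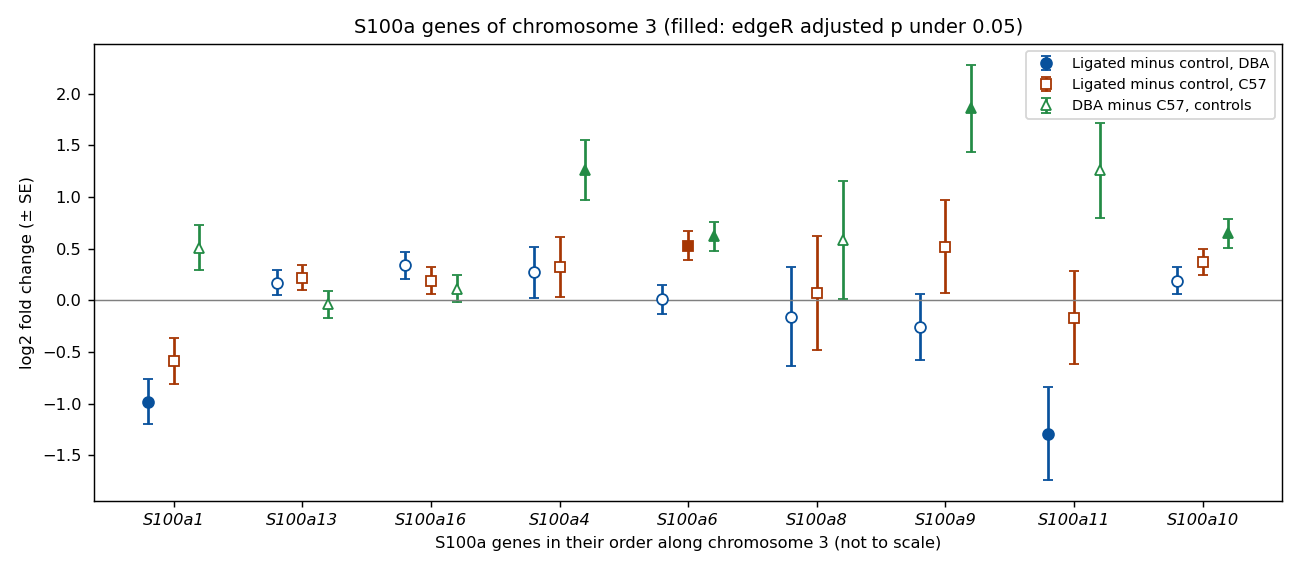
Log2 fold change with SE (y axis) of the 9 S100a genes of the table in their order along chromosome 3 (x axis, not to scale) for ligation in DBA mice (circles), ligation in C57 mice (squares) and DBA against C57 controls (triangles); filled symbols have an edgeR adjusted p under 0.05. S100a1 and S100a11 are the filled circles below 0, at -0.98 and -1.29, and S100a4, S100a6, S100a9 and S100a10 are the filled triangles above 0.

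Promoters of S100a4, the member with the largest called strain difference, and of S100a11, the member with the widest spread relative to its level, are shown in the same way. S100a4 is at chr3:90603520-90603769 and S100a11 at chr3:93520246-93520495, both on the plus strand.
S100a4: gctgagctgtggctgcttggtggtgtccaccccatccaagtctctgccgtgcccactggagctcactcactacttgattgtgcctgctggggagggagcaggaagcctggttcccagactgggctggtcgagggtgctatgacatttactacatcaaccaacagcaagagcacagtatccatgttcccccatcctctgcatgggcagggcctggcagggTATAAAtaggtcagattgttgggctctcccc
S100a11: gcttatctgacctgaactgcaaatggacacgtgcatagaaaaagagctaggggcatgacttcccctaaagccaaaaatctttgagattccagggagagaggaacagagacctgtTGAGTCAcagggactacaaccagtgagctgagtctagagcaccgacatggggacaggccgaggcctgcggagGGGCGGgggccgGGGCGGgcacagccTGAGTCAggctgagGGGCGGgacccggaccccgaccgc
The S100a4 window holds a TATA box that begins 31 bases before the start and no other match. The S100a11 window holds 2 AP-1 matches and 3 GC boxes and no TATA box. In the windows of S100a1 and S100a6 none of the 4 motifs was found, which says only that these letters are not there.

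Other genes of both families were not called after ligation. Of 12 other S100 genes listed, 6 were tested, and 0 were called in either strain. S100a16 had 0.34 ± 0.13 in DBA mice (edgeR adjusted p = 0.0624), and S100a13, S100a16 and S100b had 0.22 ± 0.12, 0.19 ± 0.13 and -0.17 ± 0.35 in C57 mice. S100a13 and S100a16 were called higher in C57 ligation without the libraries under 9 M (0.34 and 0.27, edgeR adjusted p = 0.0329 and 0.021). S100a8 and S100a9, the subunits of calprotectin made by neutrophils, were near the floor, between 0 and 1.08 CPM and between 0.221 and 1.74 CPM. S100a9 was higher in DBA mice in controls, 1.65 ± 0.134 against 0.468 ± 0.301 CPM (log2 difference 1.86 ± 0.42, edgeR adjusted p = 0.00364), and after ligation (1.08 ± 0.34, adjusted p = 0.0316). S100pbp, a binding protein of S100P and not itself an S100 protein, had -0.12 ± 0.16 and -0.06 ± 0.16 after ligation.

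Of the other annexins 6 were tested, and 0 were called after ligation in either strain. Anxa8 had the largest values, with log2 fold changes of 1.14 ± 0.45 in DBA and 2.01 ± 0.66 in C57 mice (edgeR adjusted p = 0.0731 and 0.0504), at 0.354 ± 0.0942 CPM in C57 controls and 1.46 ± 0.623 CPM after ligation. Between strains 2 of the 6 were called higher and 2 lower in DBA mice, both in controls and in ligated mice. Anxa4 was 38.6 ± 3.06 against 28.5 ± 1.02 CPM in controls (log2 difference 0.43 ± 0.10, edgeR adjusted p = 0.0031), and Anxa8 was also higher (2.27 ± 0.67, adjusted p = 0.0219). Anxa6, an annexin abundant in heart muscle, was lower in DBA controls, 198 ± 40.9 against 272 ± 6.61 CPM (-0.45 ± 0.11, edgeR adjusted p = 0.00674). Anxa13 was lower too (-1.48 ± 0.48, edgeR adjusted p = 0.0343), but near the floor, at 0.4 ± 0.375 against 1.42 ± 0.294 CPM. Its counts were 0 and 1 in DBA controls 3 and 4. Without the libraries under 9 M the Anxa6 difference was -0.26 (edgeR adjusted p = 0.0387), and with the control groups alone it was not called (-0.46, adjusted p = 0.06). Anxa7 and Anxa11 were not called, with log2 differences of -0.06 ± 0.08 and -0.37 ± 0.15 in controls, and Anxa9 did not pass the filter. Anxa8 and Anxa13 were not called between controls without the libraries under 9 M (2.24 and -1, edgeR adjusted p = 0.121 and 0.148).

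Genes that work with annexins in membrane repair were examined as a list of 14 symbols, of which 13 were tested. The symbol not tested, Cavin1, is another name of Ptrf, which was tested. In DBA mice 4 were called higher and 0 lower after ligation, with a median log2 fold change of 0.18, beside 0.03 over all genes. They were Trim72, which nucleates repair patches, at 0.52 ± 0.17 (edgeR adjusted p = 0.03), the caveolar coat gene Ptrf at 0.37 ± 0.11 (adjusted p = 0.0222), Myof, a relative of dysferlin, at 0.33 ± 0.12 (adjusted p = 0.0461) and the protease gene Capn2 at 0.32 ± 0.08 (adjusted p = 0.012). Over all genes tested, 11.1% were called higher and 13.8% lower in DBA ligation. None of the 13 was called in DBA ligation without the libraries under 9 M, where 3.15% of all genes were called higher. In C57 mice 2 were called higher and 0 lower, against 7.24% and 6.06% of all genes. The 2 were Myof at 0.67 ± 0.12 (edgeR adjusted p = 0.00336) and the muscle caveolin Cav3 at 0.55 ± 0.16 (adjusted p = 0.0351). Without those libraries 5 were called higher, where 11.1% of all genes were. Between strains, 2 of the 13 were called higher and 1 lower in DBA controls, and 1 higher and 0 lower in DBA ligated mice. The list's median was -0.02 in controls and 0 in ligated mice. Over all genes, 12.6% were called higher and 9.92% lower in controls, and 10.6% and 8.81% in ligated mice. Capn2 was the gene lower in DBA controls (-0.32 ± 0.08, edgeR adjusted p = 0.00853). Myof was higher in DBA than in C57 mice, by 0.95 ± 0.12 in controls and 0.62 ± 0.12 in ligated mice (edgeR adjusted p = 2.46e-05 and 0.000785). It was also the gene whose pattern over the 16 libraries was most like that of Anxa1, with a Pearson correlation of 0.98 in log2 CPM.

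Receptors and the plasminogen system, which Anxa2 and S100a10 serve at the cell surface, made a list of 12 symbols, of which 6 were tested. Plgrkt was tested and was also listed under an older symbol. Plat, the tissue plasminogen activator, rose in both strains, by 0.62 ± 0.11 in DBA and 0.53 ± 0.11 in C57 mice (edgeR adjusted p = 0.00285 and 0.00561). With all libraries it was the 1 gene of the list called after ligation, in either strain. Over all genes, 11.1% were called higher in DBA ligation and 7.24% in C57 ligation. Plaur, the urokinase receptor, was higher in DBA than in C57 mice, by 1.57 ± 0.24 in controls and 1.05 ± 0.20 in ligated mice (edgeR adjusted p = 0.000128 and 0.000791). Plau, urokinase itself, was called between ligated mice (0.81 ± 0.21, edgeR adjusted p = 0.00948) and had 0.64 ± 0.23 in controls (adjusted p = 0.0589). Without the libraries under 9 M, DBA ligation gave 1 gene called higher and 1 lower, and C57 ligation 1 higher and 0 lower. Between strains 2 were then called higher and 0 lower in controls, and 2 higher and 1 lower in ligated mice.

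Marker lists of other cell types were read in the same comparisons. Over all genes tested, 11.1% were called higher and 13.8% lower in DBA ligation, and 7.24% and 6.06% in C57 ligation. Between strains these shares were 12.6% and 9.92% in controls, and 10.6% and 8.81% in ligated mice. Of 8 fibroblast markers, 4 were called higher after ligation in DBA and 5 in C57 mice, and 7 were called higher in DBA than in C57 controls and 6 among ligated mice. Their summed level was 3060 to 4130 CPM in DBA controls, 4760 to 5890 in DBA ligated, 1730 to 2090 in C57 controls and 2600 to 4970 in C57 ligated libraries. These ranges did not overlap between controls and ligated mice of a strain, nor between the strains' controls. A sum weighs the most abundant markers most. The collagen genes Col1a1, Col1a2 and Col3a1 had log2 fold changes of 0.9, 1.11 and 0.96 in DBA and 1.56, 1.57 and 1.45 in C57 ligation. Dcn and Dpt were not called after ligation, at -0.01 and 0.01 in DBA and 0.11 and -0.05 in C57 mice. Of 10 macrophage markers, 7 were called higher after ligation in DBA and 5 in C57 mice, with summed levels of 446 to 538, 593 to 702, 360 to 379 and 455 to 622 CPM in the same order of groups. Without the libraries under 9 M, in DBA ligation 0 fibroblast markers and 1 macrophage marker were called higher, and in C57 ligation 5 and 8. Over all genes, 3.15% were then called higher in DBA ligation and 11.1% in C57 ligation. Between strains 4 macrophage markers were called higher and 1 lower in DBA controls, and 3 higher and 1 lower in DBA ligated mice. Without those libraries 6 and 5 fibroblast markers were called higher between controls and between ligated mice, and the macrophage counts were 4 higher and 0 lower, and 3 higher and 1 lower. The 3 neutrophil markers tested, S100a8 and S100a9 among them, summed to at most 5.51 CPM in any library, and 0 were called after ligation, while 2 were called higher in DBA than in C57 mice both in controls and after ligation.

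Of 8 endothelial markers, 4 were called higher in DBA ligation and 1 in C57 ligation, with 1100 to 1390, 1530 to 1710, 1380 to 1600 and 1670 to 1740 CPM in the same order. Between strains 0 were called higher, and 2 were called lower in DBA controls and 1 in DBA ligated mice. Without the libraries under 9 M, 2 endothelial markers were called higher in each ligation contrast, and 0 and 3 lower between controls and between ligated mice. Cardiomyocyte markers were called lower in DBA mice for 2 of 8 both in controls and after ligation, and for 1 and 4 of 8 without those libraries. Of 8 pericyte and smooth muscle markers 2 were called higher and 1 lower after ligation in each strain and between controls, and 2 higher and 0 lower between ligated mice, at 2250 to 2730, 2180 to 2390, 1910 to 2070 and 1650 to 1880 CPM. Of 5 epicardial markers 0 were called in DBA and 1 in C57 ligation, at 7.77 to 13.9, 11.6 to 18.4, 5.46 to 7.47 and 6.37 to 25 CPM, and 0 were called between strains. Without the libraries under 9 M, pericyte and smooth muscle calls were 1 higher and 1 lower in DBA ligation, 3 and 1 in C57 ligation, 2 and 0 between controls and 2 and 2 between ligated mice, and epicardial calls were 0 in both ligation contrasts and between controls and 1 higher between ligated mice. No marker of these lists that was tested was at 0 in all libraries of a group. The part of changes in cell composition in the values of the members was not tested.

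The genes most alike in pattern, by Pearson correlation of log2 CPM over the 16 libraries, describe which genes share the groups' differences. For Anxa2 they were Col16a1, Fgfr1 and Rcc2, each at 0.96, and for Anxa3 Mmp2, Il4ra and Mmp14, each at 0.95. After Myof, Anxa1 was most like Ifi30 and Trem2, both at 0.96. S100a4 was most like Chst11 (0.95), Cxcl16 (0.94) and Ctss (0.93), and S100a6 most like AA414768 (0.95), Bgn (0.94) and Sema3d (0.94). S100a10 was most like Ugt1a7c (0.96), Atf3 (0.94) and St6galnac2 (0.94), and Anxa5 most like Cnpy4 (0.92), Cd302 (0.92) and Olfml3 (0.91). Among the members, Anxa2 and Anxa3 had a correlation of 0.91, S100a6 and Anxa5 0.89, and S100a1 and Anxa2 -0.61.

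The authors' deposited table counted at least as many members past a false discovery rate (FDR) of 0.05 in each comparison. That deposited table of the authors had 5 members called in DBA ligation, 6 in C57 ligation, 0 in the interaction, 5 between controls and 5 between ligated mice, where 29%, 17.5%, 0.137%, 25.6% and 22.7% of the 13842 genes were called. All members called here were among them. The authors' deposited table added S100a1 (log2 fold change -0.60, FDR 0.0486) and S100a10 (0.37, FDR 0.0453) in C57 ligation, and S100a11 between controls (FDR 0.0223). It also gave S100a11 in DBA ligation as -1.32 with an FDR of 0.0164.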

How the data were processed

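PolyA RNA of 16 hearts was sequenced, with 1 library per mouse, which the labels call biological replicates. Per the submitters' processing notes, STAR 2.5.2b aligned the reads (mm10), featureCounts from Subread 1.5.1 counted them, and the statistics name edgeR. Which annotation and strand setting the counting had is not given in the sources used here, so overlapping and antisense genes are uncertain. The deposited table holds whole-number read counts per gene, not normalized, per the file headers; the smallest gene total is 45. It also holds the authors' log2 fold changes, p-values and false discovery rates for 5 comparisons, per the file headers, which are quoted only where named. Its 16 normalized per-sample columns were not used. Mouse numbers in 3 DBA ligated columns disagree with the labels, and S40, S41, S42, the index in the column name, serves as their name.

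The test used edgeR 4.0.16 under R 4.3.3: the filter by group left 13504 genes, TMM scaling was applied, and 1 robust quasi-likelihood fit over all 16 libraries (prior degrees of freedom 5.45) gave 5 two-sided contrasts. The steps were tested on simulated data. Levels per kb use the gene lengths of the deposited table. All 9 members were named in each ligation and strain contrast or given by their range. The other S100 and annexin genes were named at least once. Up to 4 genes with the smallest p were named from each other list, and the 3 genes with the highest correlation for each member. S100a13 and S100a16 as called without the libraries under 9 M, and Dcn and Dpt, were named after their values were seen. Members and lists were chosen with earlier results of these data known. Alternatives were library totals, DESeq2 size factors, DESeq2 1.42.0, no filter, the groups of a contrast alone, the replicate number as a block, leaving out each library or the 3 libraries under 9 M, and, chosen after seeing the data, an offset for GC content and length from GENCODE M21, which gave a GC content for 13348 of 13842 genes (96.4%). Intervals are 95% and cover the spread between mice as fitted.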

Additional observations from a re-analysis of the deposited data

Results flagged for a closer look

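S100a6 in DBA ligated library S41 was 35.3 CPM, while the other 3 libraries of its group were 30.6, 31.2 and 30.9 CPM. The gap to the nearest library exceeded Dixon's critical value for 4 samples. Of 36 groups of member levels examined in this way, 1 was past the limit, and chance alone marks about 1 in 20 groups. The same library was also the highest DBA ligated library for Anxa1, Anxa3, Anxa5 and S100a4, and its fibroblast markers summed to 5890 CPM, the highest of the group. No cause was tested.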

How the results depend on the processing

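Of 1044 values of members under the alternatives, 968 kept their direction and their side of the threshold, 33 lost and 28 gained a call, and 15 changed sign. The number of members called in DBA ligation was 2 without the 3 libraries under 9 M and 3 with the groups of the contrast alone, and ran from 3 to 5 when single libraries were left out. It ran from 0 to 6 in C57 ligation, from 4 to 7 between controls, from 4 to 5 between ligated mice and from 0 to 0 in the interaction. Genes called were 950 and 1648 in DBA ligation without those libraries and with the groups alone, 2829 in C57 ligation and 1 in the interaction without those libraries, 17 in the interaction with DESeq2, 1612 between controls with the groups alone, and 4342 and 4162 between ligated mice. Leaving out single libraries gave 1318 to 5091, 618 to 2854, 0 to 0, 2234 to 4031 and 2051 to 3317 genes in DBA ligation, C57 ligation, the interaction, controls and ligated mice.

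S100a11 changed sign to 0.14 in DBA and 0.26 in C57 ligation without the libraries under 9 M, and ran from -0.34 to 0.25 in C57 ligation when single libraries were left out. S100a6 ran from -0.06 to 0.12 in DBA ligation, and in the interaction S100a4 ran from -0.26 to 0.16 and Anxa5 from -0.14 to 0.01, with 0.03 for S100a4 under the GC and length offset; the causes were not tested. Of 34 calls of other family and list genes, 14 held in all alternatives and 0 changed sign. Calls lost when certain single libraries were left out were those of Atp5a1, Myof, Trim72 and Ptrf in DBA ligation (largest adjusted p 0.0559, 0.134, 0.107 and 0.0802), of Atp2a2, Atp5a1 and Cav3 in C57 ligation (0.067, 0.145 and 0.112), of Anxa8, Anxa13 and Pdcd6ip between controls (0.0748, 0.0847 and 0.0761), and of Anxa6, Anxa8 and S100a9 between ligated mice (0.074, 0.18 and 0.111).

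Replicate numbers showed no pairing of the mice by correlation. Same-numbered libraries had correlations of deviations of -0.07 to 0.01 between C57 controls and ligated mice. Between the controls of the strains these were -0.26 to -0.04, and no library was most like its own number. The deviations also followed GC content, with Spearman correlations of -0.46 to 0.49 in DBA controls, so the check cannot exclude a pairing. The replicate block was fitted with the groups of the contrast alone, which changes both choices at once. With both, 5 members and 1732 genes were called in C57 ligation, S100a10 added (0.38, edgeR adjusted p = 0.0434), and 2 members and 809 genes between controls, without S100a4 and S100a6 (1.26 and 0.62, adjusted p = 0.1 and 0.135). The groups alone, with no block, called 5 members and 2571 genes in C57 ligation and 4 members and 1612 genes between controls. No paired analysis was possible for the DBA ligated libraries because 3 of their columns carry no number of the labels. With 4 mice a group and totals from 4.92 M, changes of low members such as S100a4 are the least precise.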
